A study of Danio rerio with 9 samples.

Results

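The genes described here are 9 zebrafish genes of the VEGF and Tie pathways: the ligands vegfaa, vegfab and vegfc, the VEGF receptors kdr, kdrl, flt1 and flt4, and the Tie receptors tie1 and tek. They were taken by gene symbol from a table of 27158 genes, and all 9 passed the filter on low counts, which 18453 genes passed. Transcripts were counted by RNA sequencing of thyroid tumors that arose in transgenic zebrafish. In 4 tumors (CCDC6-RET tumors 2, 3, 5 and 6) the zebrafish thyroglobulin promoter, which is active in thyroid follicular cells, drove CCDC6-RET, a human fusion kinase of papillary thyroid cancer. In 5 tumors (BRAF(V600E) tumors 1, 2, 3, 6 and 7) the same promoter drove BRAF(V600E), a constitutively active form of the kinase BRAF. The tumors were harvested as visible lesions in adult fish, and both transgenes were carried on tol2 transposons. CCDC6-RET was injected into a reporter line with red fluorescent thyroid cells. In the study's survival cohort the BRAF(V600E) fish were also p53 mutant, and whether this holds for the sequenced BRAF(V600E) tumors is not stated in the labels. The sources used here give no age at collection, dissection or sequencing run, and differences in any of these cannot be told apart from the oncogene. No label assigns the libraries to separate fish, so the tests measure the spread between these libraries.

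Vessels grow toward cells that secrete VEGF. The vegfa ligands act mainly through the VEGFR2-type receptors on endothelial cells, Flt1 binds the same ligands and is known as a decoy that limits their action, and Vegfc acts through Flt4 (VEGFR3), the receptor best known from lymphatic vessels. Angiopoietins act on Tek (Tie2) with its partner Tie1 and steady the vessel wall. Teleost fish kept duplicate copies of some of these genes, such as vegfaa beside vegfab. Zebrafish also have kdrl beside kdr, both VEGFR2-type receptors. The thyroid is an endocrine gland with a dense capillary bed. The comparison asked whether ligands and receptors differ between RET-driven and BRAF-driven tumors, and whether the receptors kept their proportion to other endothelial transcripts.

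The 4 CCDC6-RET libraries held 8662544 to 13596477 counts each, and the 5 BRAF(V600E) libraries held 10656967 to 13354953. Levels below are CPM (read counts scaled to a common library size) with TMM scaling, given as mean ± SD over 4 CCDC6-RET and 5 BRAF(V600E) libraries, and they are compared only between libraries and not between genes, since gene length is not corrected for. Fold changes are log2 values with BRAF(V600E) as the baseline, so that positive values are higher in CCDC6-RET, and the standard error (SE) follows ±. The adjusted p-values are from edgeR's quasi-likelihood test with Benjamini-Hochberg adjustment over all 18453 genes tested, with a threshold of 0.05. Genes called higher or lower passed it. The groups differed widely: 72.1% of all genes tested passed the threshold, 33.9% higher and 38.2% lower in CCDC6-RET. Summed markers of other cell types differed as well. Skeletal muscle markers summed to 23.1 to 80.2 CPM in CCDC6-RET and 7096 to 22260 CPM in BRAF(V600E) libraries, erythroid markers to 94.4 to 862 and 4423 to 14970 CPM, and macrophage markers to 261 to 766 and 3781 to 5405 CPM. Of 13 thyroid follicular markers tested, 10 were higher in CCDC6-RET and none lower, with sums of 14520 to 32060 CPM against 2532 to 21560 CPM. The part of these differences in the results below was not tested beyond the ratios within a library. In bulk tumors, fewer endothelial cells and less RNA per endothelial cell cannot be told apart.

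Of the 9 genes, 6 passed the threshold: vegfaa was higher in CCDC6-RET tumors, and vegfab, vegfc, kdr, flt4 and tie1 were lower. kdrl, flt1 and tek did not pass. The 66.7% that passed lies near the 72.1% of all genes, so the share by itself is no result about these genes. The levels of the groups did not overlap for 7 of the 9 genes, against 64.8% of all genes tested. Every receptor that passed was lower, and among the ligands vegfaa was higher while vegfab and vegfc were lower.

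**Figure D1:**
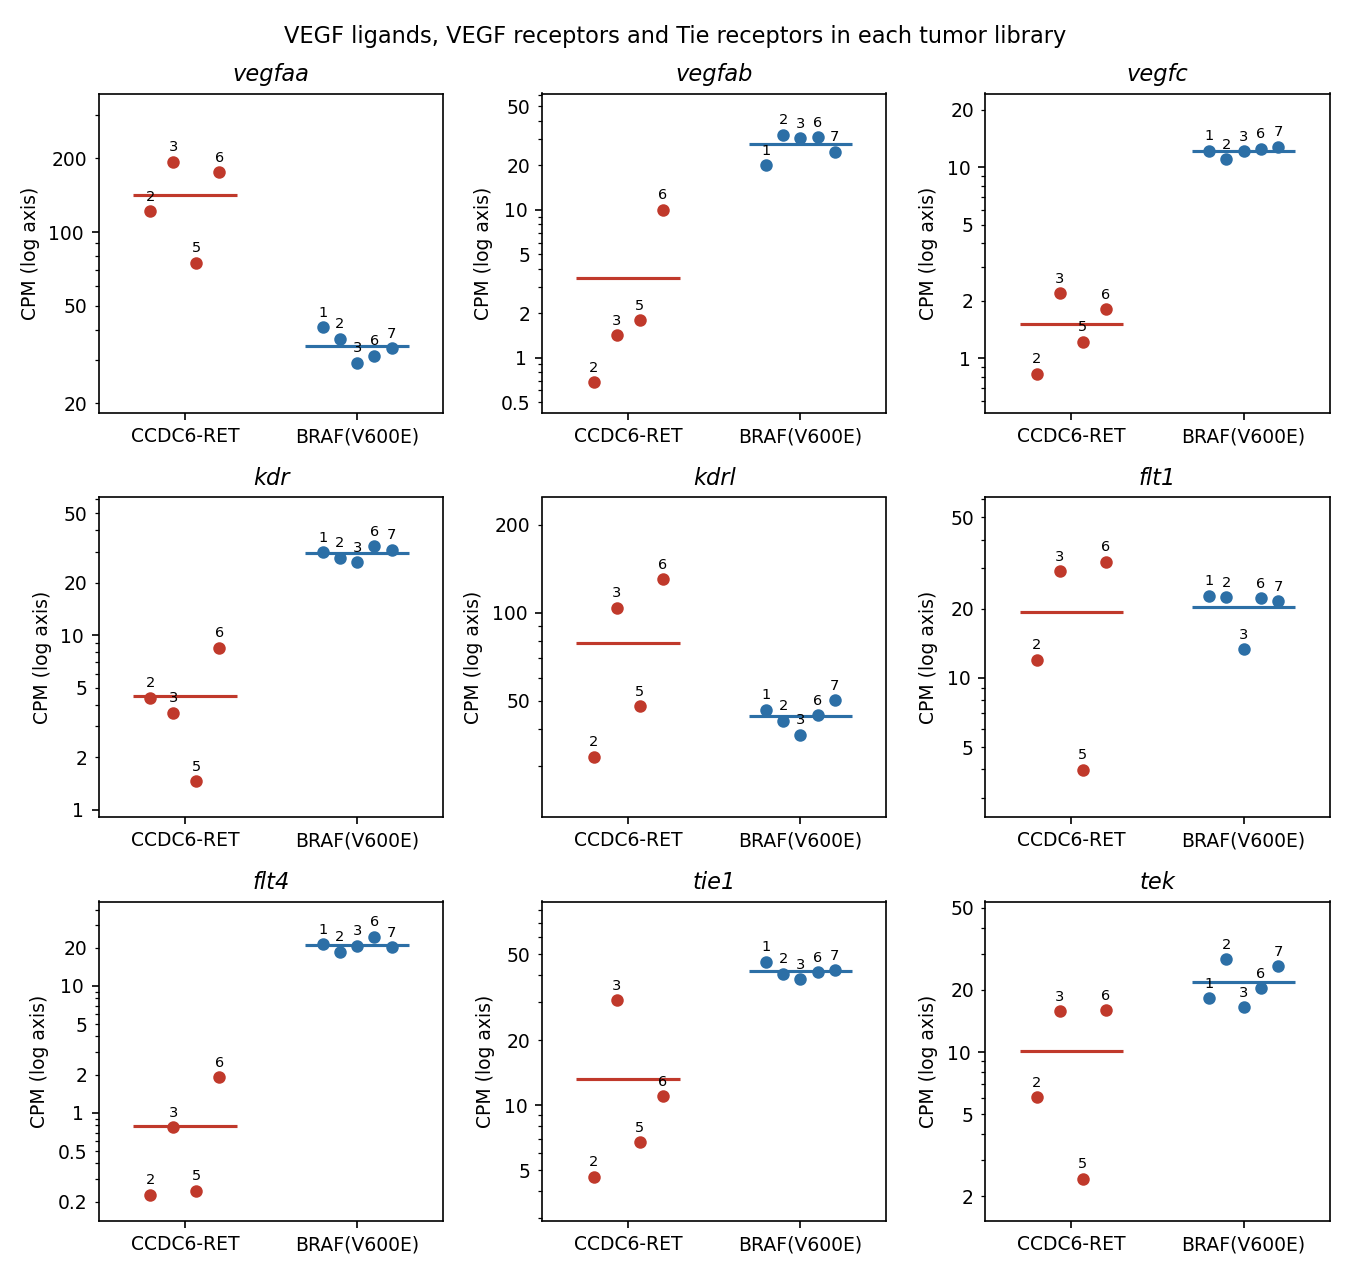
Level of each of the 9 genes in every tumor library, in CPM on a log axis, with CCDC6-RET libraries in red, BRAF(V600E) libraries in blue, the tumor number above each point and the group mean as a line. The groups do not overlap except for kdrl and flt1, and the CCDC6-RET points are more spread out than the BRAF(V600E) points in all 9 panels.

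vegfaa (ENSDARG00000103542, chromosome 16, 4458253 to 4488590, GRCz10) encodes a VEGF-A, the main signal for the growth of blood vessels. CCDC6-RET tumors 2, 3, 5 and 6 held 121, 194, 75.0 and 176 CPM, against 40.9, 36.7, 29.3, 31.3 and 33.6 CPM for BRAF(V600E) tumors 1, 2, 3, 6 and 7. Every CCDC6-RET library lay above every BRAF(V600E) library, and tumor 5 was the lowest of its group. The means were 142 ± 54.1 and 34.4 ± 4.57 CPM, a log2 fold change of 2.04 ± 0.26 (adjusted p = 7.64e-05, edgeR), or 4.12-fold.

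vegfab (ENSDARG00000034700, chromosome 4, 5560118 to 5589254) encodes the other VEGF-A of zebrafish. In CCDC6-RET tumors 2, 3, 5 and 6 it reached 0.680, 1.41, 1.79 and 9.996 CPM, against 20.1, 32.2, 30.3, 30.9 and 24.6 CPM for BRAF(V600E) tumors 1, 2, 3, 6 and 7. All CCDC6-RET libraries were below all BRAF(V600E) libraries, with tumor 6 standing well above the other CCDC6-RET tumors. The log2 fold change was -2.99 ± 0.69 (adjusted p = 0.00306, edgeR), and -4.41 with tumor 6 left out. The gene model lies inside that of apex1, a DNA repair endonuclease, which held 2463 counts over the CCDC6-RET and 1980 over the BRAF(V600E) libraries, so reads of one could have been assigned to the other.

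vegfaa and vegfab thus moved in opposite directions. vegfaa made up 99.4%, 99.3%, 97.7% and 94.6% of the counts of the pair in CCDC6-RET tumors 2, 3, 5 and 6, and 67.1%, 53.3%, 49.1%, 50.3% and 57.7% in BRAF(V600E) tumors 1, 2, 3, 6 and 7. The share was higher in every CCDC6-RET library than in any BRAF(V600E) library. It compares libraries and not the 2 genes, whose lengths may differ. The log2 ratio of vegfaa to vegfab differed by 5.61 between the groups (exact permutation test over 9 libraries, two-sided p = 0.0159, the smallest it can give; adjusted p = 0.0222 over 14 ratios). The summed level of both genes was 145 ± 56.0 CPM in CCDC6-RET against 62.0 ± 4.11 CPM in BRAF(V600E), with no overlap (exact permutation p = 0.0159, adjusted p = 0.0317 over 2 sums). With TMM scaling the summed reads of the pair were thus 2.34-fold higher in CCDC6-RET, although vegfab was lower. Such a sum depends on how libraries are scaled, and it was not recomputed under another scaling.

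**Figure D2:**
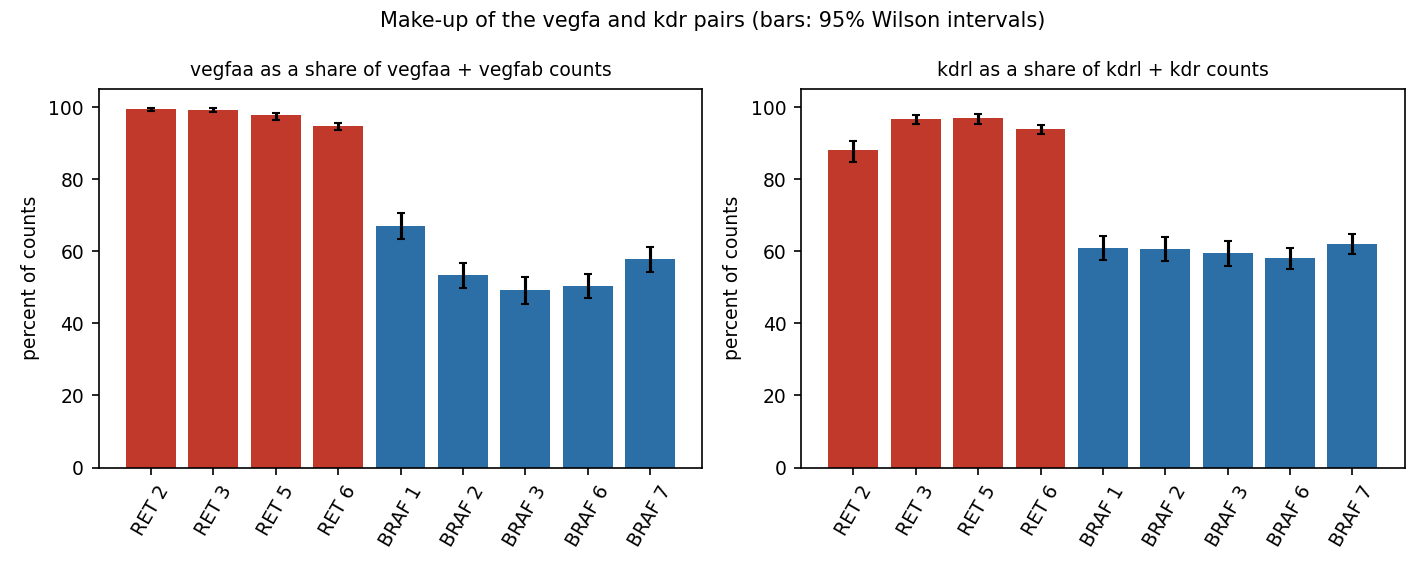
Share of counts, in percent, that vegfaa takes of vegfaa plus vegfab (left) and kdrl of kdrl plus kdr (right) in each library, with CCDC6-RET in red and BRAF(V600E) in blue. Error bars are 95% Wilson intervals, which cover counting error only. Both shares are above 88% in each CCDC6-RET library and below 68% in each BRAF(V600E) library.

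vegfc (ENSDARG00000069640, chromosome 1, 38132757 to 38190124) encodes the ligand of Flt4 and is best known for the growth of lymphatic vessels. Levels in CCDC6-RET tumors 2, 3, 5 and 6 were 0.830, 2.18, 1.22 and 1.81 CPM, against 12.2, 10.99, 12.2, 12.5 and 12.8 CPM for BRAF(V600E) tumors 1, 2, 3, 6 and 7. The groups were far apart, and the BRAF(V600E) tumors were nearly alike. The means of 1.51 ± 0.603 and 12.1 ± 0.689 CPM gave a log2 fold change of -3.03 ± 0.28 (adjusted p = 1.34e-05, edgeR), or 8.03-fold lower in CCDC6-RET.

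kdrl (ENSDARG00000105215, chromosome 14, 32643455 to 32704641) is the VEGFR2-type receptor that is widely used in zebrafish to mark blood vessel endothelium. CCDC6-RET tumors 2, 3, 5 and 6 held 32.2, 104, 48.1 and 130 CPM, against 46.6, 42.9, 38.4, 44.7 and 50.4 CPM for BRAF(V600E) tumors 1, 2, 3, 6 and 7. Tumors 3 and 6 were above all BRAF(V600E) tumors, tumor 5 lay among them, and tumor 2 was below them. The log2 fold change of 0.82 ± 0.36 did not pass the threshold (adjusted p = 0.0625, edgeR). With tumor 2 left out it was 1.11 and passed (adjusted p = 0.00691, edgeR), as it did with tumor 5 left out (0.9998, adjusted p = 0.0320, edgeR). It was 0.66 with tumor 3 left out and 0.49 with tumor 6 left out, and passed in neither (adjusted p = 0.152 and 0.211, edgeR).

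kdr (ENSDARG00000017321, chromosome 20, 22321315 to 22377871) is the other VEGFR2-type receptor. In CCDC6-RET tumors 2, 3, 5 and 6 it reached 4.38, 3.60, 1.46 and 8.47 CPM, against 29.9, 27.8, 26.3, 32.3 and 30.8 CPM for BRAF(V600E) tumors 1, 2, 3, 6 and 7. The highest CCDC6-RET tumor was still well below the lowest BRAF(V600E) tumor. kdr was lower by a log2 fold change of -2.71 ± 0.41 (adjusted p = 2.40e-04, edgeR), or 6.57-fold lower in CCDC6-RET.

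kdrl took 93.9 ± 4.16% of the counts of the kdr and kdrl pair in CCDC6-RET tumors (88.0% to 97.1%) and 60.2 ± 1.55% in BRAF(V600E) tumors (58.0% to 62.1%). The log2 ratio of kdr to kdrl was lower by 3.54 in CCDC6-RET, 11.6-fold (exact permutation p = 0.0159, adjusted p = 0.0222), and no library overlapped. The summed level of the pair was 83.2 ± 48.3 and 74.0 ± 6.42 CPM, and these overlapped (exact permutation p = 0.683, adjusted p = 0.683 over 2 sums). The make-up of the VEGFR2-type pair thus differed in every library, while a difference in its sum was not detected.

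flt1 (ENSDARG00000019371, chromosome 24, 21605636 to 21663645) encodes VEGFR1. Levels in CCDC6-RET tumors 2, 3, 5 and 6 were 12.0, 29.2, 3.98 and 32.1 CPM, against 22.8, 22.4, 13.3, 22.2 and 21.5 CPM for BRAF(V600E) tumors 1, 2, 3, 6 and 7. The CCDC6-RET tumors lay on both sides of the BRAF(V600E) tumors, tumors 3 and 6 above and 2 and 5 below. No difference was detected for flt1: its log2 fold change was -0.09 ± 0.50 (adjusted p = 0.881, edgeR), and its sign turned with tumor 2 (0.12) or tumor 5 (0.26) left out.

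flt4 (ENSDARG00000104453, chromosome 14, 15511491 to 15651094), the receptor of Vegfc, differed most of the 9 genes. CCDC6-RET tumors 2, 3, 5 and 6 held 0.227, 0.771, 0.244 and 1.904 CPM, from 3, 6, 3 and 20 counts, against 21.3, 18.7, 20.8, 24.4 and 20.3 CPM for BRAF(V600E) tumors 1, 2, 3, 6 and 7, from 209 to 347 counts. All CCDC6-RET libraries were at a small fraction of the BRAF(V600E) levels, and tumor 6 was the highest of them. The log2 fold change was -4.77 ± 0.55 (adjusted p = 4.48e-05, edgeR), a ratio of means of 26.8-fold, and -5.76 with tumor 6 left out. Ligand and receptor of the Vegfc and Flt4 pair were thus both lower in CCDC6-RET, and the receptor fell further: the log2 ratio of vegfc to flt4 was higher by 1.98 in CCDC6-RET (exact permutation p = 0.0159, adjusted p = 0.0222). With so few flt4 counts the size of this difference depends on the pseudocount, at 1.54 with 0.5 CPM and 2.17 with 0.01 CPM.

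tie1 (ENSDARG00000004105, chromosome 6, 33998984 to 34024189) encodes the Tie receptor that modulates Tek signalling. In CCDC6-RET tumors 2, 3, 5 and 6 it reached 4.68, 30.7, 6.74 and 11.04 CPM, against 46.3, 40.7, 38.5, 41.3 and 42.3 CPM for BRAF(V600E) tumors 1, 2, 3, 6 and 7. No library overlapped, and tumor 3 stood above the rest of its group. The log2 fold change was -1.67 ± 0.48 (adjusted p = 0.0109, edgeR) and -2.48 with tumor 3 left out. tie1 did not pass in fits to the 6 libraries whose tumor numbers the groups share (-1.37, adjusted p = 0.0953, edgeR).

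tek (ENSDARG00000028663, chromosome 5, 474044 to 497866) encodes Tie2, the receptor of the angiopoietins. Levels in CCDC6-RET tumors 2, 3, 5 and 6 were 6.04, 15.8, 2.44 and 16.0 CPM, against 18.2, 28.2, 16.5, 20.4 and 26.0 CPM for BRAF(V600E) tumors 1, 2, 3, 6 and 7. The groups did not overlap, but tumors 3 and 6 lay just below BRAF(V600E) tumor 3. With a log2 fold change of -1.13 ± 0.48, tek did not pass the threshold (adjusted p = 0.0588, edgeR), and it passed with DESeq2 (-1.20, adjusted p = 0.0262) and when tumor 3 or tumor 6 was left out (-1.42 and -1.43, adjusted p = 0.0366 and 0.0375, edgeR). It did not pass with tumor 2 (-0.91, adjusted p = 0.154, edgeR) or tumor 5 left out (-0.80, adjusted p = 0.0619, edgeR), or in the 6 libraries with shared tumor numbers (-0.78, adjusted p = 0.143, edgeR).

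The choice of scaling moved all of these values alike. When libraries were scaled to 83 ribosomal protein genes, the median log2 fold change of all genes shifted by -0.56, the share of calls that were higher in CCDC6-RET went from 47.0% to 25.6%, and 64.9% of genes passed. Under that scaling 7 of the 9 genes passed, vegfaa still higher and tek now among the lower ones (-1.78, adjusted p = 0.00499, edgeR), and kdrl was at 0.16 (adjusted p = 0.656, edgeR). Ratios between genes within a library do not depend on this choice, except through the pseudocount for genes with few counts such as flt4. Neither the ratios nor the sums were recomputed under ribosomal protein scaling.

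**Figure D3:**
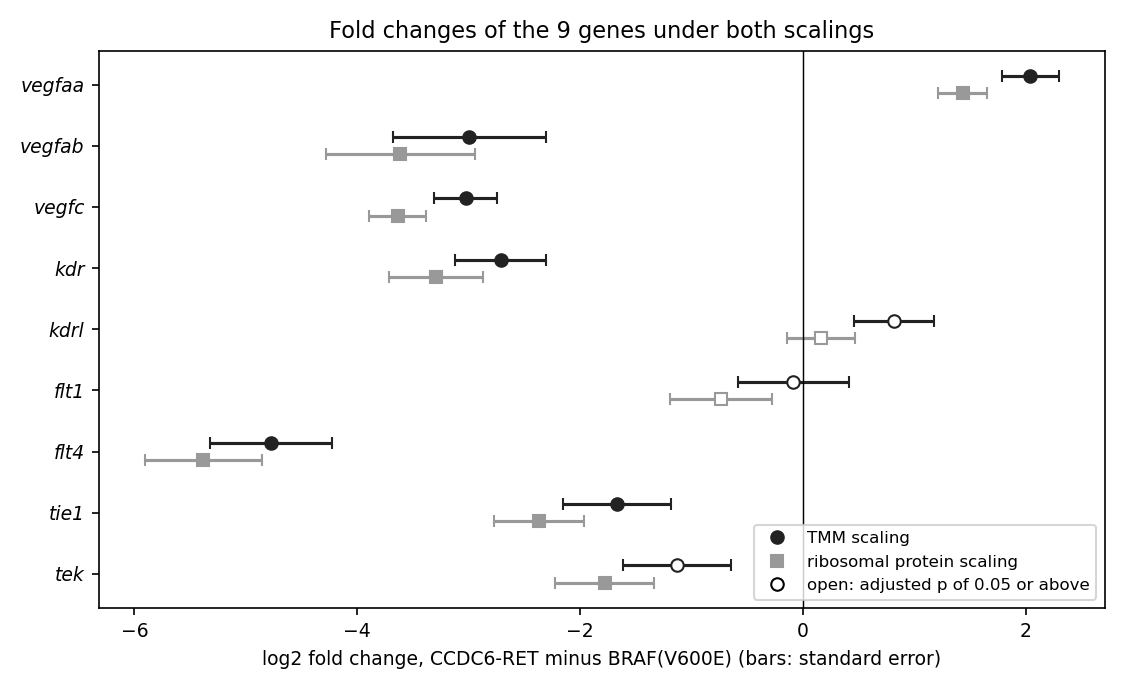
Log2 fold change, CCDC6-RET minus BRAF(V600E), of the 9 genes with its standard error as bars, under TMM scaling (black circles) and ribosomal protein scaling (grey squares). Open symbols have an adjusted p of 0.05 or above. vegfaa lies to the right of 0 and vegfab, vegfc, kdr, flt4 and tie1 to the left under both scalings, and kdrl moves from 0.82 to 0.16.

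The receptors were then set against 10 other endothelial transcripts of the same library (cdh5, pecam1, egfl7, esama, clec14a, fli1a, erg, she, robo4 and sox7), which code for junction proteins, surface proteins and transcription factors of endothelial cells. The mean log2 level of these markers was 2.84, 4.20, 2.73 and 4.42 in CCDC6-RET tumors 2, 3, 5 and 6 and 4.34 to 4.67 in BRAF(V600E) tumors, so that tumors 3 and 6 came near the BRAF(V600E) tumors and tumors 2 and 5 lay below. Against this reference kdrl was higher by 1.51 log2 units in CCDC6-RET, kdr was lower by 2.02, flt4 by 4.08 and tie1 by 1.12 (each exact permutation p = 0.0159, adjusted p = 0.0222, with no overlap between groups). The ratios of flt1 (higher by 0.45, adjusted p = 0.270) and tek (lower by 0.53, adjusted p = 0.185) did not pass the exact permutation test. The ratio of flt4 depends on the pseudocount, with a difference of -3.38 at 0.5 CPM and -4.35 at 0.01 CPM. The 10 markers themselves did not move alike: their log2 fold changes ran from -1.93 (esama) to 0.58 (she), and 4 were lower and 6 did not pass (edgeR). The log2 fold changes of kdr (-2.71) and flt4 (-4.77) lay below this range and that of tie1 (-1.67) inside it, and that of kdrl (0.82) was above it but near its upper end. The 10 reference markers are part of the 33 endothelial markers described below, of which 17 were lower. klf2a, tal1, gata2a and sox17, all lower there, are not in the reference. Ratios to another set of markers were not computed, so the ratios above hold for this choice only.

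**Figure D4:**
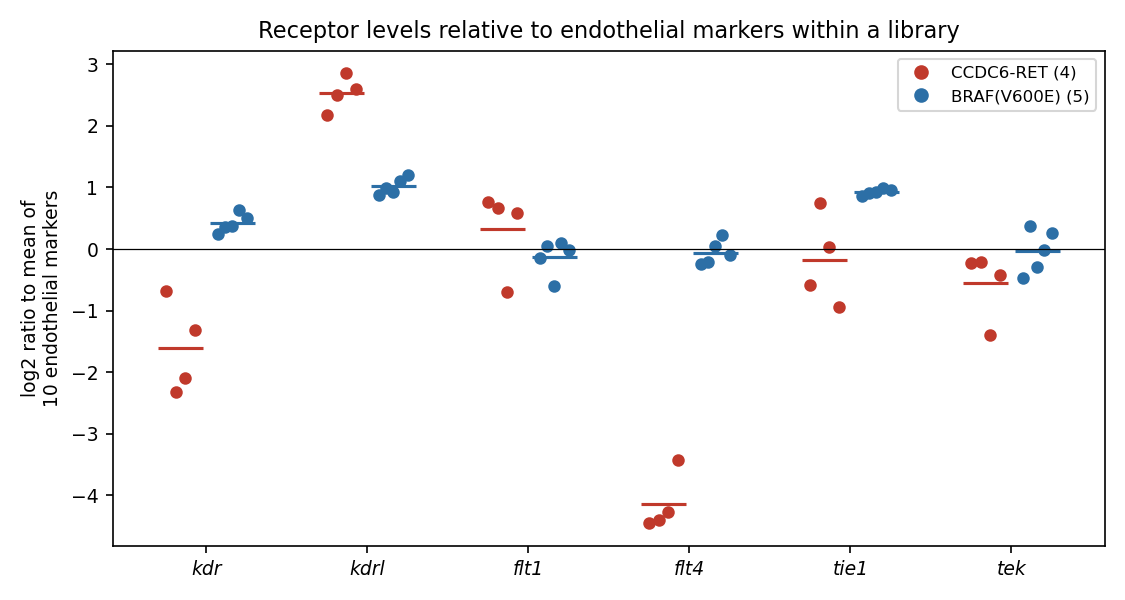
Log2 ratio of each receptor to the mean of 10 endothelial markers in the same library, with 4 CCDC6-RET libraries in red, 5 BRAF(V600E) libraries in blue and group means as lines. kdrl lies higher in CCDC6-RET, kdr, flt4 and tie1 lie lower with no overlap, and flt1 and tek overlap between the groups.

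Relative to kdrl itself, flt4 was lower by 5.59 log2 units in CCDC6-RET (-4.85 and -5.87 with pseudocounts of 0.5 and 0.01 CPM), tie1 by 2.63 and flt1 by 1.06 (exact permutation adjusted p = 0.0222, 0.0222 and 0.0404). vegfaa to kdrl was higher by 1.35 (exact permutation adjusted p = 0.0222), so the ligand was higher relative to this receptor in the same libraries. The ratio of tek to tie1 differed by 0.59 and did not pass (exact permutation adjusted p = 0.270). In all, 11 of the 14 ratios passed, 4 higher and 7 lower in CCDC6-RET. Most of the 14 share kdrl or the marker reference, so they are not separate results. How often ratios of other genes pass was not computed, and the groups did not overlap for 64.8% of all genes tested. The count by itself is therefore no result about these genes. The difference in the log2 ratio of flt1 to kdrl was -0.61 (exact permutation adjusted p = 0.0833) without CCDC6-RET tumor 5 and -1.33 to -1.01 with any other library left out. Of these fits it passed only without CCDC6-RET tumor 2 or BRAF(V600E) tumor 3 (exact permutation adjusted p = 0.0455 and 0.0364).

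The CCDC6-RET tumors also varied more among themselves. The coefficient of variation of the 9 genes ranged from 38.2% to 126.1% over CCDC6-RET libraries, against 5.68% to 23.1% over BRAF(V600E) libraries, and it was larger in CCDC6-RET for all 9, as it was for 79.8% of all genes tested. For 7 of the 9 genes, the exceptions being kdr and vegfab, tumors 3 and 6 were both above tumors 2 and 5, an order chosen after the values were seen that 19.4% of all genes tested showed. The same order was found for 25 of 33 endothelial markers tested, and it was not particular to them. It was found for 9 of 13 macrophage, 7 of 13 mural and 6 of 11 erythroid markers. Of the hypoxia lists, 8 of 14 sensing genes and 10 of 23 targets showed it. It was found for 5 of 18 skeletal muscle, 1 of 13 thyroid follicular and 4 of 10 lymphatic endothelial markers. Of the other pathway lists described below, 3 of 10 ligands and coreceptors, 2 of 8 Tie partners and 2 of 18 signalling genes showed it. Erythroid marker sums were 694 and 862 CPM in tumors 3 and 6 and 207 and 94.4 CPM in tumors 2 and 5, and mural marker sums were 324 and 622 against 150 and 114 CPM. Macrophage sums (766 and 350 against 430 and 261 CPM) and lymphatic sums (728 and 637 against 651 and 760 CPM) did not follow the order. The part of vessel or blood content in this order was not tested.

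Other genes of the pathway were counted by list. Over the lists of ligands and coreceptors, Tie partners, receptor signalling, hypoxia sensing and hypoxia targets, 72 genes were tested, of which 19 were higher and 26 lower in CCDC6-RET, with a median log2 fold change of -0.09, which equals that of all genes tested (-0.09). These 45 genes are 62.5% of the lists, below the 72.1% of all genes. Each of the 5 lists held genes of both directions. Under ribosomal protein scaling lower genes outnumbered higher ones in each of these lists.

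Among the ligands and coreceptors, 3 of 10 genes were higher, 4 lower and 3 did not pass, with a median of -0.38. The 70.0% that passed lies near the 72.1% of all genes. The neuropilins, coreceptors of VEGF and semaphorins, split by copy. nrp2a was at 1023, 643, 1006 and 896 CPM in CCDC6-RET tumors 2, 3, 5 and 6, with 41.7 to 75.1 CPM in the BRAF(V600E) group (log2 fold change 3.92 ± 0.22, adjusted p = 1.49e-06, edgeR). nrp1a was at 455, 271, 264 and 844 CPM and at 71.8 to 97.6 CPM (2.37 ± 0.33, adjusted p = 1.54e-04, edgeR). Both lay far above the BRAF(V600E) range in every CCDC6-RET tumor. nrp1b was lower (9.11 ± 5.23 against 40.3 ± 10.2 CPM, -2.15 ± 0.36, adjusted p = 4.55e-04, edgeR), and nrp2b did not pass (0.39 ± 0.31, adjusted p = 0.276, edgeR). Neuropilins are also made by cells other than endothelium, and the table cannot tell which cells made these transcripts.

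Of the factors that mature Vegfc, ccbe1, the cofactor of its cleavage, was lower in CCDC6-RET (10 counts over 4 libraries, 0.296 ± 0.424 against 3.35 ± 0.666 CPM, -3.68 ± 0.83, adjusted p = 0.00269, edgeR). adamts3, the protease, was higher (1.85 ± 0.49, adjusted p = 0.00680, edgeR) at 16.8, 15.5, 51.0 and 11.2 CPM in tumors 2, 3, 5 and 6 and 3.48 to 9.51 CPM in BRAF(V600E) tumors. pgfb, a placental growth factor (-2.14 ± 0.67, adjusted p = 0.0157, edgeR), and vegfbb, a VEGF-B (4 counts in CCDC6-RET, -3.19 ± 0.74, adjusted p = 0.00334, edgeR), were lower. vegfba (-0.89 ± 0.47, adjusted p = 0.111, edgeR) and figf, the Vegfd ligand (0.14 ± 0.51, adjusted p = 0.815, edgeR), did not pass. pgfb no longer passed in the 6 libraries whose tumor numbers the groups share (-1.95, adjusted p = 0.0862, edgeR).

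Among angiopoietins and Tie partners, 2 of 8 genes were higher, 5 lower and 1 did not pass, with a median of -2.24. In this short list 87.5% passed against 72.1% of all genes, and 62.5% were lower against 38.2%. angpt1, the main activating ligand of Tek, was at 0.0755, 0.257, 0.244 and 0.286 CPM in CCDC6-RET tumors 2, 3, 5 and 6 (9 counts in all) and at 2.69 to 4.78 CPM in BRAF(V600E) tumors (-4.11 ± 0.40, adjusted p = 1.68e-05, edgeR). It was near the detection floor in all CCDC6-RET tumors. angpt4 was higher (12.5 ± 11.2 against 3.62 ± 1.11 CPM, 1.79 ± 0.56, adjusted p = 0.0158, edgeR), though tumor 3, at 2.95 CPM, lay within the BRAF(V600E) range, and it no longer passed under ribosomal protein scaling (1.22, adjusted p = 0.0783, edgeR), in the 6 libraries with shared tumor numbers (2.13, adjusted p = 0.0539, edgeR) or without tumor 6 (0.99, adjusted p = 0.0574, edgeR). angpt2b was lower (-3.35 ± 0.93, adjusted p = 0.00864, edgeR), with its 8 counts in CCDC6-RET all in tumor 6, and angpt2a was at 4.77 ± 3.84 and 4.87 ± 1.61 CPM (-0.02 ± 0.50, adjusted p = 0.971, edgeR). ptprb, the phosphatase that dampens Tie signalling, was lower (-1.17 ± 0.26, adjusted p = 0.00285, edgeR). The matrix protein gene svep1 (-4.81 ± 0.69, adjusted p = 1.79e-04, edgeR) was lower. Of the integrin subunits, itga5 was higher (1.84 ± 0.22, adjusted p = 5.15e-05, edgeR) and itgb1a lower (-3.31 ± 0.56, adjusted p = 4.93e-04, edgeR).

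Downstream of the receptors, 6 of 18 signalling genes were higher, 5 lower and 7 did not pass (median -0.15). The 61.1% that passed is below the 72.1% of all genes. The Src family kinase gene yes1 (304 ± 35.8 against 76.2 ± 5.18 CPM, 1.995 ± 0.12) and the PI3 kinase subunit gene pik3cb (205 ± 47.9 against 76.0 ± 8.22 CPM, 1.43 ± 0.16) were higher. The kinase gene akt1 (1.54 to 3.62 against 9.74 to 14.3 CPM, -2.33 ± 0.27) and nfatc1, a calcium-responsive transcription factor (1.53 ± 0.530 against 15.5 ± 4.95 CPM, -3.35 ± 0.35), were lower. These 4 genes act in many cell types. Related genes of the list did not all move with them. akt2 was higher (0.43 ± 0.10, adjusted p = 0.00278, edgeR), and akt3a and akt3b did not pass. The PI3 kinase subunit genes pik3ca (-1.57 ± 0.23, adjusted p = 2.18e-04, edgeR) and pik3r1 (-0.83 ± 0.23, adjusted p = 0.00898, edgeR) were lower. akt2 and pik3r1 did not pass in every alternative. These related genes were chosen after their values were seen.

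**Figure D5:**
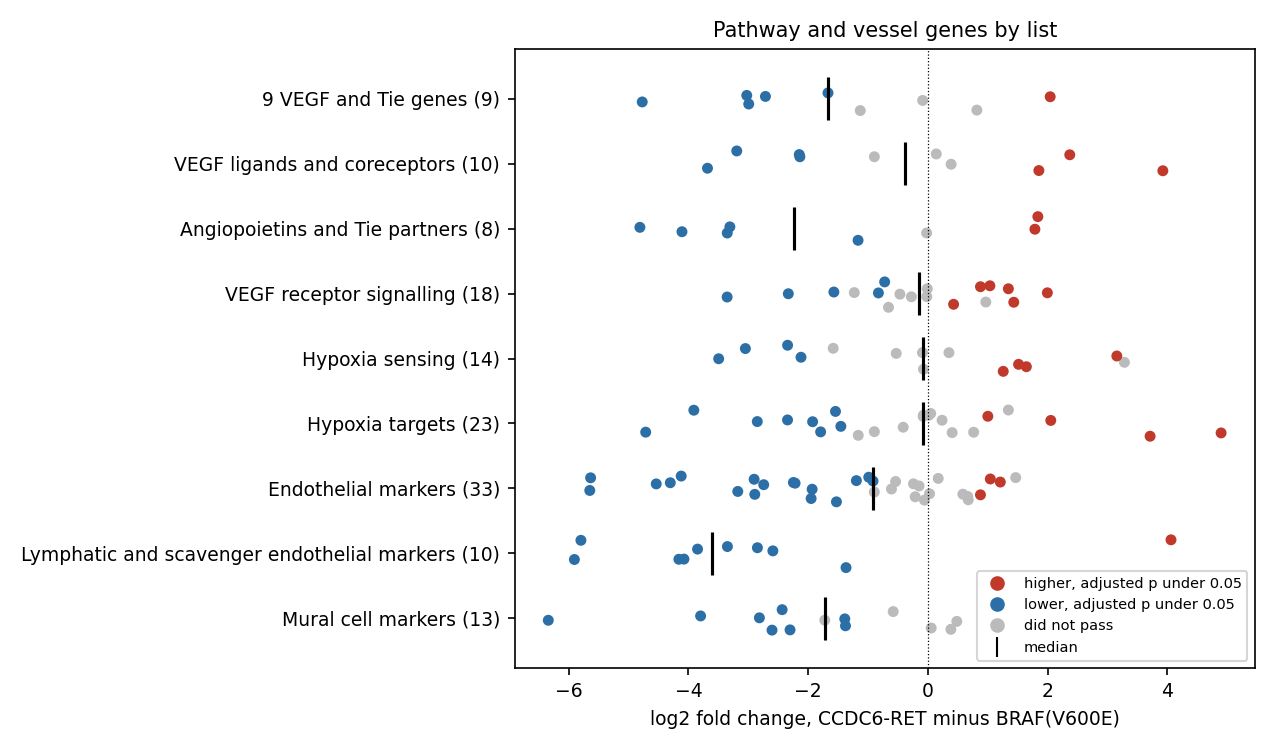
Log2 fold change, CCDC6-RET minus BRAF(V600E), of every tested gene of the lists (number in parentheses), with genes that passed an adjusted p of 0.05 in red (higher) or blue (lower), others in grey and the median as a black line. The ligand, signalling and hypoxia lists spread on both sides of 0, and the lymphatic and mural lists have medians of -3.60 and -1.72.

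VEGF genes are known targets of the hypoxia pathway, in which HIF factors are held down by prolyl hydroxylases and Vhl when oxygen is present. Of 14 hypoxia sensing genes 4 were higher and 4 lower (median -0.08), and of 23 hypoxia targets 4 were higher and 8 lower (median -0.08). The 57.1% and 52.2% that passed are below the 72.1% of all genes. epas1a (HIF2 alpha) was lower in CCDC6-RET (24.5 ± 17.8 against 276 ± 55.5 CPM, -3.50 ± 0.52), as were arnt, a HIF partner subunit (-2.34 ± 0.24), and vhll (-2.12 ± 0.30). hif1an, which inhibits HIF, was higher (160 ± 79.5 against 17.9 ± 1.77 CPM, 3.16 ± 0.29). vhl itself, chosen after its values were seen, was also higher (1.64 ± 0.39, adjusted p = 0.00349, edgeR), unlike vhll. Further HIF genes, also chosen after their values were seen, differed in direction. hif1ab (-0.07 ± 0.13, adjusted p = 0.6165, edgeR), arnt2 (-0.09 ± 0.12, adjusted p = 0.524, edgeR) and hif1aa (-1.58 ± 0.69, adjusted p = 0.0617, edgeR) did not pass. hif1al was higher (1.51 ± 0.28, adjusted p = 9.39e-04, edgeR) and epas1b lower (-3.05 ± 0.52, adjusted p = 5.09e-04, edgeR). Among targets, the glucose transporter gene slc2a1b (-4.71 ± 0.42), pdk1 (-2.85 ± 0.31) and bnip3 (-1.54 ± 0.26) were lower and pfkfb4b, a regulator of glycolysis (53.4 ± 4.67 against 26.7 ± 0.989 CPM, 1.001 ± 0.10), was higher. Both hypoxia lists thus held genes of both directions (under ribosomal protein scaling, 3 higher and 8 lower for sensing, and 3 higher and 10 lower for targets).

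CCDC6-RET tumor 6 had the highest summed level of the hypoxia targets. Their summed level was 4937 CPM there, 628 to 906 CPM in the other CCDC6-RET tumors and 1021 to 1258 CPM in BRAF(V600E) tumors, and ldha (1844 CPM) and pgk1 (1315 CPM) made up most of it. Tumor 6 was the highest CCDC6-RET tumor for 13 of the 23 genes, as it was for 24.7% of all genes tested, 6 of the 9 VEGF and Tie genes and 20 of 33 endothelial markers. egln3, a HIF prolyl hydroxylase that hypoxia induces, was at 331 CPM in tumor 6 and at 0.650 to 8.61 CPM in the other CCDC6-RET tumors, and ldha, a lactate dehydrogenase, was at 197 to 278 CPM in those tumors (egln3, ldha and pgk1 were chosen after their values were seen). In the same tumor vegfaa was at 176 CPM, below the 194 CPM of tumor 3, whereas vegfab, at 9.996 CPM, was the highest of its group. The part of hypoxia in these levels was not tested.

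Of the vessel markers, 3 of 33 endothelial genes were higher, 17 lower and 13 did not pass (median -0.92), and none was at 0 in a whole group. The 60.6% that passed is below the 72.1% of all genes, with 51.5% lower against 38.2% of all genes. Their summed level was 270 to 762 CPM in CCDC6-RET against 1796 to 2907 CPM in BRAF(V600E) libraries, and without klf2a (478 to 1543 CPM in BRAF(V600E) libraries) the sums were 256 to 731 and 1060 to 1476 CPM. Under ribosomal protein scaling 20 were lower and none higher. Those named by smallest p were lower: klf2a, a factor induced by blood flow (24.2 ± 7.77 against 1213 ± 463 CPM), tal1 (2.54 ± 1.69 against 49.0 ± 12.5 CPM), gata2a (3.84 ± 4.39 against 183 ± 46.6 CPM) and sox17 (0.168 ± 0.116 against 2.99 ± 0.893 CPM). tal1 and gata2a also act in blood cell precursors. cdh5, a marker of the reference above, did not pass (71.8 ± 45.9 against 70.4 ± 9.92 CPM, 0.03 ± 0.40, adjusted p = 0.9545, edgeR). rasip1 was 1 of the 3 higher genes (0.88 ± 0.26, adjusted p = 0.0117, edgeR). Both were chosen after their values were seen. Of 10 lymphatic and scavenger endothelial genes 9 were lower and 1 higher (median -3.60). In this short list 100% passed against 72.1% of all genes, and 90.0% were lower against 38.2%. vegfc, flt4 and ccbe1 were lower too, while adamts3 and nrp2a were higher and figf did not pass. mrc1a (1.67 ± 0.929 against 29.3 ± 4.54 CPM, -4.16 ± 0.40, adjusted p = 1.65e-05, edgeR) and ackr4b (3.16 ± 1.84 against 52.7 ± 10.7 CPM, -4.08 ± 0.40, adjusted p = 1.93e-05, edgeR) were lower. lyve1b had 3 counts over the CCDC6-RET libraries, a ratio with a 95% counting interval of 23.2 to 334. The gene that rose was nr2f2 (653 ± 67.0 against 39.1 ± 5.89 CPM, 4.06 ± 0.15, adjusted p = 4.22e-07, edgeR), a nuclear receptor of venous and lymphatic endothelium that many other cells also express. It made up most of the summed level of the list in CCDC6-RET, which was 637 to 760 CPM against 279 to 363 CPM in BRAF(V600E). Of 13 mural cell genes 8 were lower and none higher (median -1.72). The 61.5% that passed is below the 72.1% of all genes, while 38.2% of all genes were lower. Among them were notch3, a receptor of pericytes and smooth muscle (11.9 ± 6.87 against 166 ± 14.7 CPM, -3.80 ± 0.38, adjusted p = 2.16e-05, edgeR), and foxc1b (-2.82 ± 0.25, adjusted p = 1.01e-05, edgeR).

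Profiles across the 9 libraries were compared by the root mean square difference of log2 levels after subtracting each gene's mean, among 17801 genes of at least 1 CPM. The profiles most like that of kdrl were those of pparda (0.226), myct1b (0.233) and CU571069.1 (0.250). Those most like vegfaa were h1fx (0.197), CLDN23 (0.203) and fam96a (0.212). With 9 libraries in 2 groups, such likeness describes these libraries only.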

How the data were processed

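Total RNA of visible thyroid tumors was sequenced as paired-end TruSeq libraries, whose read length differs between the labels and the study's methods. For every gene the authors deposited an unnormalized read count per library. The submitters' processing notes name GRCz10 and STAR 2.3, while the study's methods name a later version of STAR. How reads were assigned to genes (tool, strand, annotation release) is not given in the sources used here. Overlapping genes may therefore share reads. The same table holds the authors' normalized signal (each count over its library's size factor), which was not tested, and the authors' DESeq2 comparison (base mean, log2 fold change and its standard error, test score, p-value and adjusted p-value), which was not used.

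Counts were analysed with edgeR 4.0.16 (R 4.3.3) using filterByExpr (minimum count 10), TMM and a robust quasi-likelihood F test with no covariate. SEs were computed as the absolute log2 fold change over the square root of F. Ratios used log2(CPM + 0.1) and a two-sided exact permutation test of 4 against 5 libraries, adjusted over 14 ratios. The 9 genes and the lists were chosen with earlier results of these data known. The 12 lists held 199 entries, of which 184 matched by symbol and 3 by a reference symbol (14 did not match, and symbols held by more than 1 gene ID gave a row each). All 9 genes were named. In the lists of ligands and of Tie partners every gene tested was named. Otherwise up to 4 called genes with the smallest p per pathway, endothelial, lymphatic or mural list, and up to 2 per other list, could be named, and not all are printed. The text names other genes as chosen after their values were seen. Alternatives were relative log expression scaling, scaling to 83 ribosomal protein genes (rps6k kinases left out), DESeq2 1.42.0, no filter, a replicate block, other pseudocounts and leaving out each library. The steps were tested on simulated data. Shares carry Wilson 95% intervals, which cover counting error only. Positions are whole gene models on GRCz10 as in the file.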

Additional observations from a re-analysis of the deposited data

Results flagged for a closer look

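Within groups of 4 or 5 libraries, 146 sets of values were checked for a library far from the others, and 10 were flagged (chance flags about 1 in 20). Of the 9 genes, vegfab was at 9.996 CPM in CCDC6-RET tumor 6 and at 0.680 to 1.79 CPM in the other CCDC6-RET tumors, and flt1 was at 13.3 CPM in BRAF(V600E) tumor 3 and at 21.5 to 22.8 CPM in the others. The log2 ratio of flt1 to endothelial markers was -0.71 in CCDC6-RET tumor 5 and 0.59 to 0.76 in the others. In CCDC6-RET tumor 6, angpt2b was at 0.762 CPM and tbx18 at 0.0952 CPM, the latter a single count, with 0 counts in the other CCDC6-RET tumors. In CCDC6-RET tumor 5, adamts3 was at 51.0 CPM (11.2 to 16.8 CPM in the others) and pfkfb4b at 46.5 CPM (55.0 to 56.5 CPM in the others). ptprb was at 39.2 CPM in CCDC6-RET tumor 3 (15.1 to 18.6 CPM in the others). In the BRAF(V600E) group, nrp1b was at 57.6 CPM in tumor 7 (32.7 to 39.7 CPM in the others) and angpt4 at 1.74 CPM in tumor 3 (3.75 to 4.53 CPM in the others).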

How the results depend on the processing

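Across 15 alternatives, 5 to 7 of the 9 genes passed, and vegfaa, vegfab, vegfc, kdr and flt4 kept their direction and their call in every one. The replicate block could be fitted to 6 libraries, since the groups share only tumor numbers 2, 3 and 6. Deviations of same-numbered libraries correlated by -0.04 to 0.03, so no pairing by number was detected. With only 3 shared numbers, this check cannot show that the samples were unpaired. With the block 5 of the 9 genes and 34 other pathway genes passed (5 and 37 in the same libraries without it), 7 hypoxia targets passed (9 in the same libraries without it, 12 in all 9 libraries), and 10260 genes passed in all. tie1 was at -1.77 with the block (adjusted p = 0.0587, edgeR). flt1, which never passed, was at 0.27 with the block, 0.34 in the same 6 libraries without it, 0.12 without CCDC6-RET tumor 2 and 0.26 without CCDC6-RET tumor 5, and -0.42 to 0.26 over all fits with 1 library left out, and the cause was not tested. With 1 library left out, 6 to 7 of the 9 genes, 39 to 48 other pathway genes and 8 to 14 hypoxia targets passed. Of the ratios, 10 to 11 came under the threshold. Without CCDC6-RET tumor 3 or 6, the 10 ratios under it were all at an exact permutation adjusted p of 0.04999. That value comes from rounding the smallest p the test can give there. Unrounded it equals 0.05, so no ratio can be said to pass in these fits. The ratio of flt1 to endothelial markers passed (0.79, exact permutation adjusted p = 0.0455) without CCDC6-RET tumor 5. Leave-one-out values of the sums, chosen after seeing the data, were 66.4 to 106 CPM higher in CCDC6-RET for the vegfa pair and -9.35 (without CCDC6-RET tumor 6) to 24.7 CPM for the kdr pair. Neither sum passed in any such fit, where the exact test is coarser (lowest exact permutation adjusted p = 0.0571 for the vegfa pair and 0.286 for the kdr pair). For the vegfa pair each such fit gave the smallest p the test allows there. With the kdr pair not passing, its adjusted p could not come under the threshold, so these fits cannot decide whether the vegfa sum holds. Depth limits genes with few counts over the CCDC6-RET libraries, among them lyve1b (3), vegfbb (4), sox17 (7), angpt2b (8), angpt1 (9), ccbe1 (10) and flt4 (32). The ratio of flt1 to kdrl did not pass in 7 of 9 fits with 1 library left out, where the exact test is also coarser.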
